A study of Mus musculus with 8 samples.

Results

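The genes described here are 39 genes of the skeletal muscle sarcomere and of muscle energy supply, measured in forepaw skin of mice after an injection of pituitary adenylate cyclase-activating polypeptide (PACAP). They were taken by gene name from a list, with earlier results of these data known, so that the list is not independent of the values below. All 39 were found among 29608 gene names, and 59 of 39429 probes read them. Of the 39 genes, 25 had 1 probe and 14 had several, and each gene is represented by the brightest of its probes except where a further probe is cited. The series asked how gene expression in palm skin changes after PACAP, a peptide that raises sweat secretion, and whether the change needs its receptor PAC1R.

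Wild-type (WT) mice were C57BL/6J, and PAC1R KO mice were Adcyap1r1 -/- mice, which the labels also give as C57BL/6J. All were males of 9 to 10 weeks under a mixed anaesthetic, so the vehicle groups share the anaesthesia and the needle. The footpad received 5 µL of saline with 0.1% bovine serum albumin, either alone (vehicle) or with 1e-07 mol/L PACAP. Skin was taken 30 or 60 min later. This gave 4 comparisons of PACAP with vehicle, each made with 1 pair of RNA samples on 2 arrays whose dyes were swapped. The 2 arrays of a comparison hold the same RNA and count as 1 replicate, so their spread is technical. Which mice entered an RNA sample is not named in the sources used here.

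A sarcomere is the contractile unit of a muscle fibre. Thin filaments of actin, with nebulin along their length and tropomyosin and troponin on their surface, slide past thick filaments of myosin, and both are anchored, at the Z disc and at the M band. Fast and slow fibres build the troponins and several other parts from separate genes. Calcium released from the sarcoplasmic reticulum starts contraction, and creatine kinase, myoglobin and the enzymes of glycogen breakdown and glycolysis supply its energy.

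The arrays were Agilent 2-colour arrays, 8 in all, and the WT and the KO arrays were on separate slides, so that the effects of slide and genotype cannot be told apart. The share of spots well above background ran from 78.6% to 94.5% for red and from 54.0% to 65.3% for green signals. Of the 39 genes, 36 were above background in all 16 channels. Tmod1 and Mybpc2 were so in 15 channels and Dmd in 10. With all log ratios written as PACAP over vehicle, the arrays of a dye swap correlated at between -0.54 and -0.31 over all probes. Over probes above background in every channel, they correlated at between 0.19 and 0.65. The tissue label was checked with 10 keratinocyte genes, all of which were above background in all 16 channels. The deleted gene Adcyap1r1 was read at log2 levels of 8.28 and 7.98 in vehicle-treated WT and KO skin at 30 min, and of 8.67 and 8.56 at 60 min. That probe did not set the KO samples clearly apart, so in these arrays the genotypes rest on the labels.

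Muscle genes were higher in the PACAP sample than in the vehicle sample in WT mice at 30 min, and lower in the PACAP sample in PAC1R KO mice at 30 min. For WT the median log2 ratio of the 39 genes was 0.71, with 0.77 on the array that carried PACAP in Cy5 and 0.68 on the array that carried it in Cy3. Both arrays were above 0 for 37 of the 39 genes and both below 0 for none, and the single ratios ran from -0.05 for Tnni1 to 1.65 for Ttn. In PAC1R KO mice at 30 min the median was -0.68, with -0.65 and -0.68 on the single arrays. Here both arrays were below 0 for 36 of the 39 genes and above 0 for 2, Mylpf and Tnnc1, and the ratios ran from -1.41 for Tmod1 to 0.19 for Mylpf. The median over all gene names was 0.00 in both comparisons, and over the 16146 gene names above background in every channel it was -0.01 in WT mice and -0.06 in KO mice. In bulk skin, a different number of muscle fibres and a different amount of RNA per fibre cannot be told apart.

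A call needed a mean fold of at least 2 or at most 0.5, arrays that did not differ in sign, and on each array a p below 0.01 from Feature Extraction. This p comes from that software's error model and describes a single array. In WT mice at 30 min, 5 of the 39 genes were called up-regulated, namely Ttn, Myot, Myom2, Neb and Cmya5, where 0.267% of all gene names were called. In PAC1R KO mice at 30 min, 5 were called down-regulated, namely Tmod1, Actn3, Acta1, Dmd and Eno3, where 0.098% of all gene names were called. Of the 5 in KO, 1 was still called with normexp background correction and loess, and 3 when both channels had to be above background on every array, while all 5 in WT were still called under both. With the mean over all probes of a gene, 3 were called in WT and 4 in KO. Genes just short of the threshold in WT were Mybpc1 at 1.98-fold, Tmod1 at 1.96-fold and Actn2 at 1.95-fold, and in KO Cmya5 at 0.511-fold and Atp2a1 at 0.512-fold. No gene was called down-regulated in WT or up-regulated in KO at 30 min, against 0.108% and 0.692% of all gene names.

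Most muscle genes moved by less than 2-fold. With no fold threshold, an alternative added after the values were seen, 27 of the 39 genes were up-regulated in WT at 30 min, against 1.3% of all gene names and 2.16% of those above background in every channel. In KO at 30 min 22 were down-regulated, against 1.4% and 2.42%. At 60 min the median of the 39 log2 ratios was 0.00 in WT mice and 0.04 in KO mice. None was called in either direction at 60 min with or without the fold threshold. With it, the background shares of all gene names called up- and down-regulated in WT at 60 min were 0.659% and 0.115%, and those in KO were 0.179% and 0.162%. Without it, WT had 0.855% and 0.179% and KO 0.419% and 0.257%, and among gene names above background in every channel 1.22% and 0.173% in WT and 0.632% and 0.372% in KO. Without the fold threshold at 30 min, 0 of the 39 genes went down in WT, against 0.274% and 0.458%, and 0 went up in KO, against 1.73% and 2.78%.

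**Figure D1:**
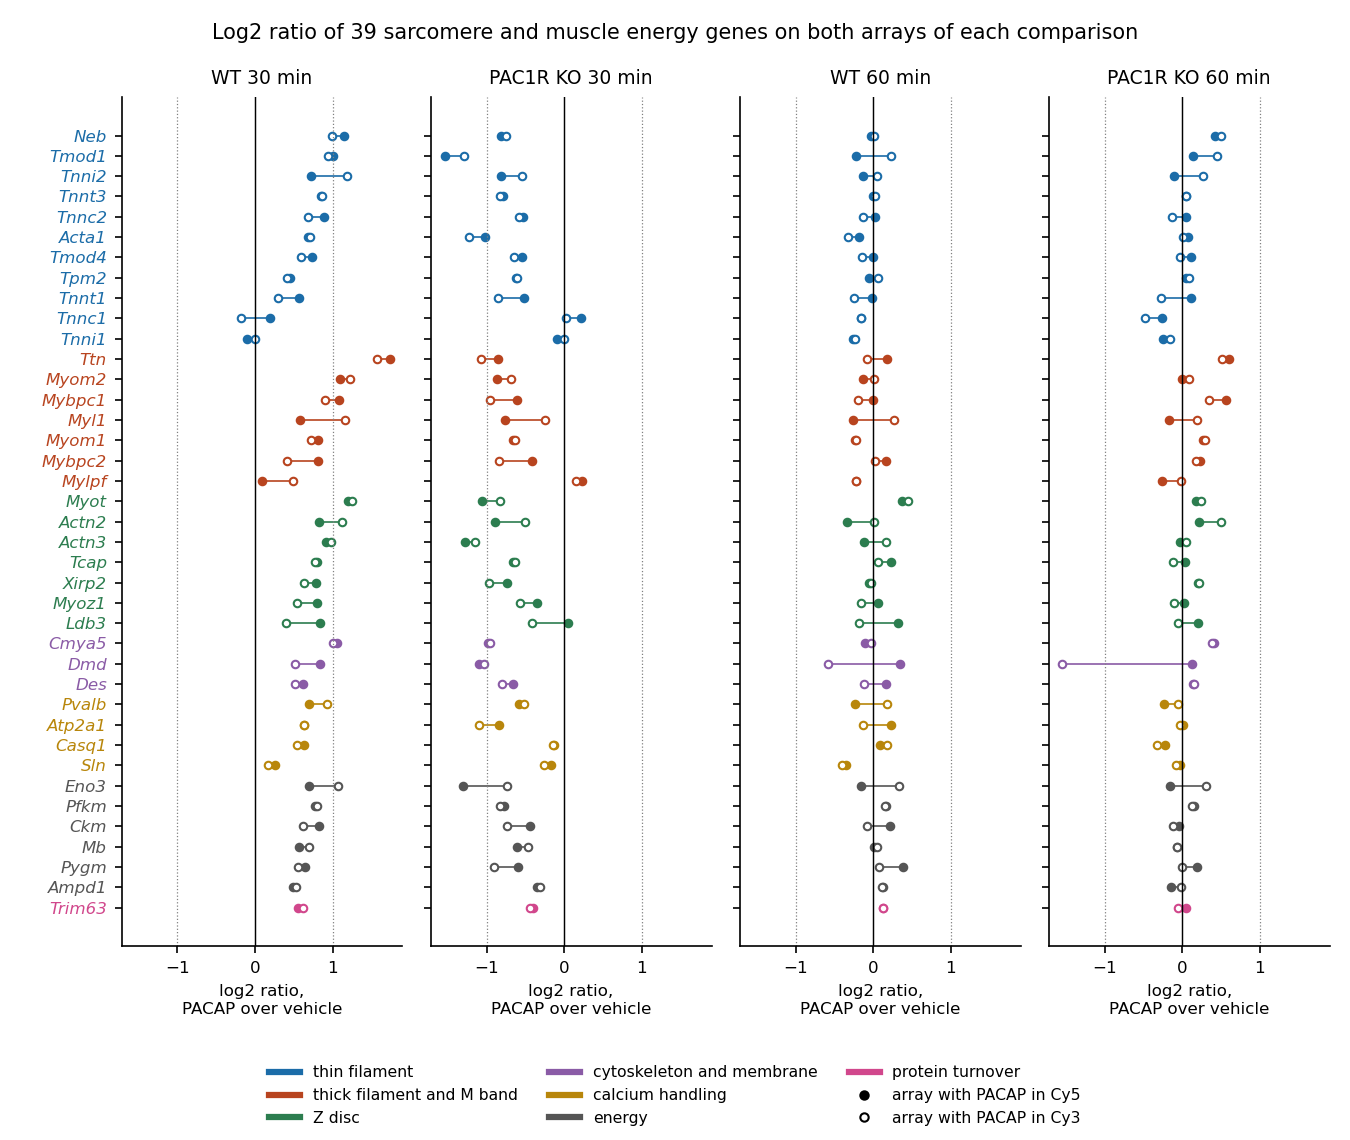
Log2 ratio of PACAP over vehicle (horizontal axis) for each of the 39 genes (rows, coloured by role) in the 4 comparisons (panels). Filled points are the array with PACAP in Cy5, open points the array with PACAP in Cy3, and dotted lines mark 2-fold. Nearly all genes lie right of 0 in WT at 30 min and left of 0 in PAC1R KO at 30 min, with medians of 0.71 and -0.68, and around 0 at 60 min.

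Thin filament genes were represented by 11 of the 39. Their median log2 ratio was 0.69 in WT mice and -0.68 in KO mice at 30 min. Both arrays were above 0 for 9 of the 11 in WT, and both below 0 for 10 of the 11 in KO. Tmod1, tropomodulin 1, which caps the slow-growing end of the actin filament, had the largest mean change of the group. Its log2 level was 6.72 with vehicle and 7.09 with PACAP in the WT pair at 30 min, 6.84 and 6.42 in the KO pair at 30 min, 6.78 and 6.73 in the WT pair at 60 min, and 6.65 and 6.75 in the KO pair at 60 min. The PACAP sample was thus the higher of its pair in WT at 30 min and the lower in KO at 30 min. On single arrays the log2 ratio was 1.00 and 0.94 in WT at 30 min and -1.53 and -1.29 in KO at 30 min, while at 60 min it was -0.22 and 0.23 in WT and 0.14 and 0.45 in KO. Levels and ratios come from separate normalizations, and for a dim probe such as this the level shows a smaller difference than the ratio.

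Skeletal muscle actin, Acta1, is the main protein of the thin filament. Its level was 13.59 with vehicle and 14.26 with PACAP in the WT pair at 30 min, 13.80 and 12.71 in the KO pair at 30 min, 14.38 and 14.20 in the WT pair at 60 min, and 13.99 and 13.98 in the KO pair at 60 min. The KO sample taken 30 min after PACAP was the lowest of the 8. Its fold was 1.62 in WT mice and 0.458 in KO mice at 30 min. Nebulin, Neb, the giant protein that runs along the thin filament, rose 2.10-fold in WT at 30 min, with a log2 ratio of 1.15 and 1.00 on the single arrays. In KO its log2 ratio was -0.79 at 30 min and 0.47 at 60 min. A further probe of Neb above background in every channel gave 0.72 in WT mice and -0.91 in KO mice at 30 min. Tmod4, a tropomodulin of muscle fibres, had log2 ratios of 0.66 and -0.60 in the same comparisons, and the tropomyosin gene Tpm2 had 0.44 and -0.62.

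Thick filament and M band genes were 7 of the 39, with a median log2 ratio of 0.87 in WT mice and -0.65 in KO mice at 30 min. In WT both arrays were above 0 for all 7. Titin, Ttn, spans from the Z disc to the M band and acts as a spring, and it had the highest ratio of all 39 genes. The Ttn level (probe at chr2:76542077-76542136 of mm9, minus strand) was 11.31 with vehicle and 12.93 with PACAP in the WT pair at 30 min, 12.39 and 11.46 in the KO pair at 30 min, 11.53 and 11.65 in the WT pair at 60 min, and 11.29 and 11.77 in the KO pair at 60 min. The PACAP sample of WT at 30 min was the highest of the 8, and the vehicle sample of KO at 30 min came next. In folds this was 3.14 in WT mice and 0.515 in KO mice at 30 min, and 1.04 and 1.47 at 60 min.

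Ttn had 4 probes. The second brightest, also above background in every channel, gave a log2 ratio of 0.88 in WT mice and -0.72 in KO mice at 30 min, smaller than the 1.65 and -0.96 of the brightest but with the same signs. The other probes were above background in 9 of 16 channels. Myl1, an essential light chain of fast myosin, had the brightest probe of this group. Its level was 14.85 with vehicle and 15.71 with PACAP in the WT pair at 30 min, 15.36 and 14.87 in the KO pair at 30 min, 15.31 and 15.33 in the WT pair at 60 min, and 15.22 and 15.23 in the KO pair at 60 min. The arrays of its dye swap lay further apart than most, at 0.58 and 1.16 in WT and -0.76 and -0.25 in KO. A further probe of Myl1, above background in every channel, gave 0.67 in WT mice and only -0.09 in KO mice at 30 min.

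Myomesin 2, Myom2, which crosslinks thick filaments at the M band, rose 2.23-fold in WT at 30 min. Its log2 ratio in KO at 30 min was -0.78. Myom1 lay at 0.76 and -0.65 and the myosin binding proteins Mybpc1 and Mybpc2 at 0.99 and -0.78 and at 0.61 and -0.63. Mylpf, the regulatory light chain of fast myosin, departed from the group. On its brightest probe the log2 ratio was 0.29 in WT mice and 0.19 in KO mice at 30 min, and on its other probe, also above background in every channel, -0.24 and 0.40. Of 11 genes with several probes above background in every channel, 10 had every such probe above 0 in WT and below 0 in KO at 30 min. Among these 10 the further probe of Myl1 lay close to 0 in KO, at -0.09. Mylpf was the exception.

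Z disc genes were 7 of the 39, with a median log2 ratio of 0.78 in WT mice and -0.70 in KO mice at 30 min. All 7 had both arrays above 0 in WT, and 6 had both below 0 in KO, with Ldb3 split at 0.05 and -0.42. A second probe of Ldb3, a scaffold protein of the Z disc, gave -0.61 and -0.69. Myot, myotilin, which binds alpha-actinin and actin, had a level of 10.75 with vehicle and 11.94 with PACAP in the WT pair at 30 min, 11.48 and 10.59 in the KO pair at 30 min, 11.42 and 11.84 in the WT pair at 60 min, and 11.34 and 11.52 in the KO pair at 60 min. It was the gene with the highest ratio at 60 min in WT, with a log2 ratio of 0.36 and 0.44 on single arrays, which did not reach 2-fold.

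Tcap, telethonin, ties titin to the Z disc. Its level was 14.56 with vehicle and 15.34 with PACAP in the WT pair at 30 min, 15.25 and 14.63 in the KO pair at 30 min, 14.96 and 15.10 in the WT pair at 60 min, and 15.09 and 15.06 in the KO pair at 60 min. Dye orientation hardly mattered for Tcap, with 0.80 and 0.77 in WT and -0.65 and -0.63 in KO at 30 min. Actn3, the alpha-actinin of fast fibres, fell to 0.433-fold in KO at 30 min, where its log2 ratio was -1.27 and -1.14 on single arrays. In WT its log2 ratio was 0.94. Myoz1, a calcineurin-binding protein of the Z disc, had log2 ratios of 0.67 and -0.46 in WT and KO, and Xirp2, an actin-binding repeat protein, had 0.71 and -0.85. Actn2, the alpha-actinin of all fibres, had 0.97 in WT mice and -0.70 in KO mice on its brightest probe. The second probe of Actn2, above background in 8 of 16 channels, gave -0.18 and 0.18, the only gap of over 1 between probes of a gene other than that of Dmd.

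The cytoskeleton and membrane group held Dmd, Des and Cmya5, all with both arrays above 0 in WT and below 0 in KO at 30 min. Cmya5, a large protein that binds desmin, had the brightest probe. The Cmya5 level was 10.88 with vehicle and 11.90 with PACAP in the WT pair at 30 min, 11.72 and 10.76 in the KO pair at 30 min, 11.19 and 11.13 in the WT pair at 60 min, and 10.81 and 11.23 in the KO pair at 60 min. Its log2 ratio agreed closely between dye orientations, at 1.06 and 1.01 in WT and -0.98 and -0.96 in KO at 30 min. Des, desmin, the intermediate filament around the Z disc, had log2 ratios of 0.57 and -0.73. Dmd, dystrophin, which links the cytoskeleton to the membrane, was dim, with levels of 6.51 and 6.77 in the WT pair at 30 min, 6.58 and 6.31 in the KO pair at 30 min, 6.36 and 6.38 in the WT pair at 60 min, and 6.24 and 6.21 in the KO pair at 60 min. Its 5 probes differed by over 1 on the log2 scale in every comparison, from 0.00 to 1.58 in WT and from -1.06 to 0.27 in KO at 30 min, and none was above background in every channel. At 60 min in KO its arrays lay at 0.13 and -1.56, the widest split of any of the 39 genes, so its value there is set by 1 array.

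Calcium handling genes were 4 of the 39, with a median log2 ratio of 0.60 in WT mice and -0.38 in KO mice at 30 min, and with both arrays above 0 for all 4 in WT and below 0 for all 4 in KO. Atp2a1, the calcium pump of the fast sarcoplasmic reticulum, changed most over the 4 comparisons. Its level was 10.44 with vehicle and 11.08 with PACAP in the WT pair at 30 min, 9.83 and 9.01 in the KO pair at 30 min, 10.94 and 11.02 in the WT pair at 60 min, and 10.30 and 10.29 in the KO pair at 60 min. Both KO samples at 30 min were the lowest of the 8, vehicle included. Pvalb, parvalbumin, a calcium buffer of fast fibres, had levels of 13.92 and 14.70 in the WT pair at 30 min, 14.47 and 13.92 in the KO pair at 30 min, 14.78 and 14.73 in the WT pair at 60 min, and 14.75 and 14.65 in the KO pair at 60 min. Sarcolipin, Sln, which restrains the pump, moved little at 30 min, at 0.21 in WT mice and -0.22 in KO mice. In WT at 60 min it had the lowest ratio of the 39 genes, at -0.38, with -0.36 and -0.40 on single arrays. Casq1, the calcium store protein, lay at 0.58 in WT mice and -0.14 in KO mice at 30 min.

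Energy genes were 6 of the 39, and all 6 had both arrays above 0 in WT and below 0 in KO at 30 min, with medians of 0.68 and -0.67. Eno3, the muscle enolase of glycolysis, had a level of 13.30 with vehicle and 14.15 with PACAP in the WT pair at 30 min, 14.11 and 13.15 in the KO pair at 30 min, 13.95 and 14.05 in the WT pair at 60 min, and 14.09 and 14.12 in the KO pair at 60 min. It was the energy gene called down-regulated in KO, at 0.493-fold, with -1.31 and -0.74 on single arrays. Myoglobin, Mb, which stores oxygen, had the brightest probe of the group, with levels of 15.26 and 15.91 in the WT pair at 30 min, 15.81 and 15.26 in the KO pair at 30 min, 15.71 and 15.73 in the WT pair at 60 min, and 15.68 and 15.69 in the KO pair at 60 min. Thus Mb stood at the same level in the 2 lowest samples, WT with vehicle and KO with PACAP at 30 min. The remaining energy genes, muscle creatine kinase (Ckm), glycogen phosphorylase (Pygm), phosphofructokinase (Pfkm) and AMP deaminase (Ampd1), had log2 ratios of 0.73, 0.60, 0.79 and 0.51 in WT and of -0.59, -0.75, -0.81 and -0.33 in the KO pair at 30 min.

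Trim63, also called MuRF1, is a ubiquitin ligase that marks sarcomere proteins for breakdown, and it was the member for protein turnover. It was 9.40 with vehicle and 9.95 with PACAP in the WT pair at 30 min, 9.05 and 8.71 in the KO pair at 30 min, 10.15 and 10.25 in the WT pair at 60 min, and 9.57 and 9.63 in the KO pair at 60 min on the log2 level scale. Its log2 ratio of 0.58 in WT mice and -0.42 in KO mice at 30 min had the same signs as those of the structural genes.

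Fast and slow isoforms were compared as ratios within arrays. Probes that cross an intron read spliced mRNA, and 9 of the 59 probes did so. Those of 3 fast or shared genes and of the 2 slow troponins that did not follow the other genes are shown, 5′ to 3′ in the sense of the transcript, with no capitals because no site in them is singled out. They lie at chr19:4861727-4862212 (minus strand), chr7:149698500-149700262, chr7:20002222-20004829, chr1:137705328-137706203 and chr14:32023360-32023776 (plus strand) of mm9.
Actn3: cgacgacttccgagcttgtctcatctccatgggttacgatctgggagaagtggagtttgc
Tnnt3: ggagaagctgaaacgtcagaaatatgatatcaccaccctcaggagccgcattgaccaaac
Ckm: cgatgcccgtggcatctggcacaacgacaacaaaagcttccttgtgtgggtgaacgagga
Tnni1: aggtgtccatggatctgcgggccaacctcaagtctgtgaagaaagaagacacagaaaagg
Tnnc1: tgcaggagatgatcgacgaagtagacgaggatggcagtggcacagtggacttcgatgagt

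The troponin complex holds troponin T, which binds tropomyosin, troponin I, which blocks contraction, and troponin C, which binds calcium. Fast troponin I (Tnni2) had the brightest thin filament probe, with levels of 14.89 with vehicle and 15.79 with PACAP in the WT pair at 30 min, 15.53 and 14.90 in the KO pair at 30 min, 15.41 and 15.46 in the WT pair at 60 min, and 15.30 and 15.27 in the KO pair at 60 min. Slow troponin I (Tnni1) had levels of 9.88 and 9.90 in the WT pair at 30 min, 9.74 and 9.73 in the KO pair at 30 min, 10.73 and 10.53 in the WT pair at 60 min, and 9.93 and 9.72 in the KO pair at 60 min. Within each pair at 30 min the Tnni1 samples hardly differed, while the Tnni2 samples did. The log2 ratio of Tnni2 minus that of Tnni1 was 0.82 and 1.18 on the arrays of WT and -0.72 and -0.55 on those of KO at 30 min.

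Troponin C showed the same arrangement. Fast troponin C (Tnnc2) had levels of 14.63 and 15.41 in the WT pair at 30 min, 15.34 and 14.79 in the KO pair at 30 min, 15.02 and 14.97 in the WT pair at 60 min, and 15.03 and 15.03 in the KO pair at 60 min. Slow troponin C (Tnnc1) had levels of 9.59 and 9.64 in the WT pair at 30 min, 10.05 and 10.17 in the KO pair at 30 min, 10.70 and 10.56 in the WT pair at 60 min, and 9.83 and 9.56 in the KO pair at 60 min. Tnnc2 minus Tnnc1 came to 0.77 in WT mice and -0.68 in KO mice at 30 min. At 60 min it came to 0.11 and 0.33, with the Tnnc1 ratio at -0.37 in KO.

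Troponin T differed less between fibre types on the brightest probes. Fast troponin T (Tnnt3) had levels of 13.45 and 14.29 in the WT pair at 30 min, 13.83 and 13.03 in the KO pair at 30 min, 13.80 and 13.82 in the WT pair at 60 min, and 13.75 and 13.80 in the KO pair at 60 min. Slow troponin T (Tnnt1) had levels of 12.65 and 13.07 in the WT pair at 30 min, 12.92 and 12.23 in the KO pair at 30 min, 13.20 and 13.06 in the WT pair at 60 min, and 12.84 and 12.80 in the KO pair at 60 min. Both moved in the same direction, with a log2 ratio of 0.86 for Tnnt3 and 0.43 for Tnnt1 in WT and of -0.81 and -0.68 in KO at 30 min. On the intron-crossing probe of Tnnt3 printed above, the ratio was 0.94 in WT mice and -0.78 in KO mice. A further probe of Tnnt1, above background in every channel, gave 0.22 in WT mice and -0.41 in KO mice at 30 min. The size of the difference between Tnnt3 and Tnnt1 thus depends on the Tnnt1 probe.

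Over the 11 fast and 4 slow genes, the mean log2 ratio of the fast genes minus that of the slow genes was 0.38 ± 0.18 in WT mice and -0.23 ± 0.13 in KO mice at 30 min (SD between the 2 arrays, 1 pair of RNA samples each). At 60 min it was 0.15 ± 0.11 in WT mice and 0.02 ± 0.18 in KO mice. The slow list was not uniform. Mybpc1, the slow myosin binding protein C, moved like the fast genes, and Tnni1 and Tnnc1 did not, nor did the fast gene Mylpf. With 1 pair of RNA samples a comparison, these differences were not tested across animals.

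**Figure D2:**
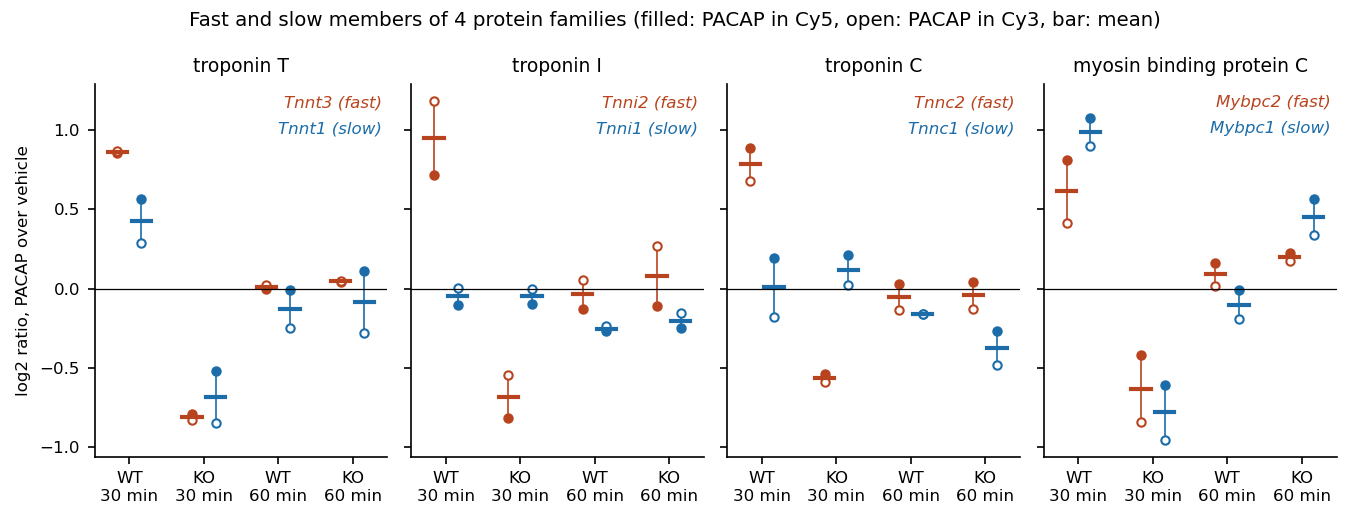
Log2 ratio of PACAP over vehicle (vertical axis) of the fast and the slow gene of 4 protein families (panels) in the 4 comparisons (horizontal axis), with filled points for PACAP in Cy5, open points for PACAP in Cy3 and bars for their mean. Fast and slow troponin I and C separate at 30 min in both genotypes, with Tnni2 at 0.95 and Tnni1 at -0.05 in WT, while the troponin T and myosin binding protein C genes lie on the same side of 0.

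Levels in the single RNA samples show which sample of a pair lay apart. Relative to each gene's own mean over the 8 samples, the median of the 39 genes was -0.32 with vehicle and 0.36 with PACAP in WT at 30 min. It was 0.09 and -0.37 in the KO pair at 30 min, 0.08 and 0.16 in the WT pair at 60 min, and -0.01 and 0.04 in the KO pair at 60 min. Both samples of the WT pair at 30 min therefore lay away from the 4 samples at 60 min, the vehicle sample below and the PACAP sample above. In KO at 30 min the PACAP sample lay below them and the vehicle sample did not. Over gene names above background in every channel, these medians lay between -0.02 and 0.02.

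Of the 39 genes, 25 were highest in the WT sample taken 30 min after PACAP, against 24.8% of the 16146 gene names above background in every channel. The KO sample taken 30 min after PACAP was the lowest for 19, against 21.5% of those gene names, and the WT vehicle sample at 30 min for 12, against 8.22%. Between vehicle samples, 23 of the 39 genes were higher in KO and 16 lower, with a median log2 difference of 0.15. None of the 39 passed in this comparison, in which limma with Benjamini-Hochberg adjustment called 0 of 37534 probes at an adjusted p below 0.05 and 2425 had an unadjusted p below 0.05. Des had the smallest p of the 39, with a difference of -0.26 (limma standard error 0.09, adjusted p = 0.77).

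**Figure D3:**
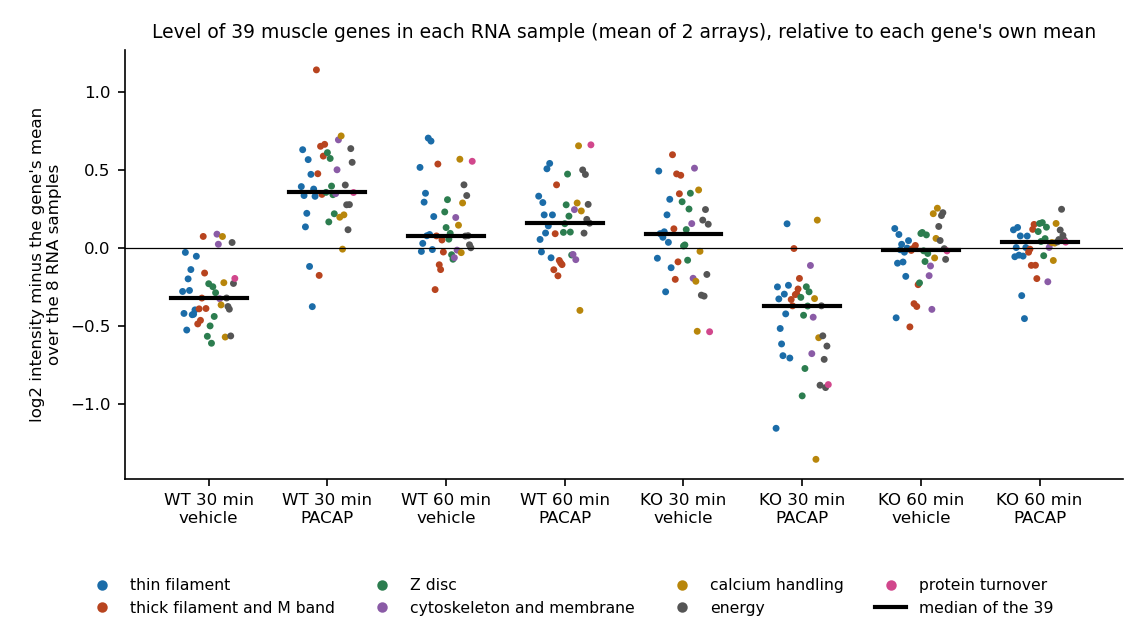
Log2 intensity of each of the 39 genes minus that gene's mean over the 8 RNA samples (vertical axis), in each RNA sample (horizontal axis), with points coloured by role and a bar at the median. The vehicle and PACAP samples of WT at 30 min lie at medians of -0.32 and 0.36, and those of KO at 30 min at 0.09 and -0.37.

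At 30 min, 35 of the 39 genes had both arrays above 0 in WT and both below 0 in KO. This held for 16.5% of all gene names and for 28.2% of those above background in every channel. The exceptions were Mylpf, Tnni1, Tnnc1 and Ldb3. None of the 39 had the opposite pattern, which 13.7% and 23.6% of those gene names had. Across the 39 genes the WT and KO ratios at 30 min correlated at r = -0.67, and at -0.70 over the 36 genes above background in every channel. Genes are not independent replicates, and these values describe the hybridised samples. The other pairs of comparisons, none of which share an RNA sample, correlated at 0.63 (WT at 30 min with KO at 60 min), 0.39 (WT at 30 with WT at 60 min), 0.15 (WT with KO at 60 min), -0.25 (WT at 60 with KO at 30 min) and -0.41 (KO at 30 with KO at 60 min). No such value was computed over all genes. Ttn, Neb and Mybpc1 had the highest ratios in KO at 60 min, at 0.56, 0.47 and 0.45.

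The difference of the PACAP effect between the genotypes was tested over both time points with limma, with 2 comparisons a genotype. Of the 39 genes, 38 were lower in KO, with a median difference of -0.67 on the log2 scale, where the median over all probes was 0.02. The spread between time points was large, and 0% of 30350 probes passed an adjusted p of 0.05 (0 probes, with 972 at an unadjusted p below 0.05, 3 of them for the 39 genes). Dmd had the smallest p of the 39, with a difference of -1.17 (limma standard error 0.31, Benjamini-Hochberg adjusted p = 0.84). This Dmd value rests on a dim probe whose arrays split in KO at 60 min, where its mean was -0.71 and that of the other Dmd probes above 0, up to 0.52. Myot followed with -1.18 (standard error 0.45) and Tcap with -0.81 (standard error 0.31), both at the same adjusted p. Without the WT comparison at 60 min, which leaves 1 WT comparison at 30 min against 2 KO comparisons and takes the residual spread from KO alone, limma called Ttn among the 39 (-1.85, standard error 0.42, adjusted p = 0.0074), with genotype and time point partly mixed.

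The mean of the 4 comparisons lay above 0 for 28 of the 39 genes, with a median of 0.03, and the difference between 60 and 30 min had a median of -0.04. In limma both tests called 0 of 30350 probes after Benjamini-Hochberg adjustment, with 678 and 483 probes at an unadjusted p below 0.05 and 0 of the 39 genes among them.

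At 60 min the genotypes were less apart. Both arrays were above 0 in WT and below 0 in KO for 3 genes, Casq1, Mb and Ampd1, against 4.16% of all gene names and 6.56% of those above background in every channel. The reverse was found for 5, Acta1, Mybpc1, Myom1, Xirp2 and Cmya5, against 5.45% and 9.4%. Between the time points, 9 genes went from above 0 at 30 min to below 0 at 60 min in WT, against 5.3% and 9.14%, and none the other way, against 3.87% and 6.53%. In KO, 15 genes went from below 0 at 30 min to above 0 at 60 min, against 12.1% and 20.6%, and Tnnc1 and Mylpf the other way, against 10.3% and 16.5%.

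**Figure D4:**
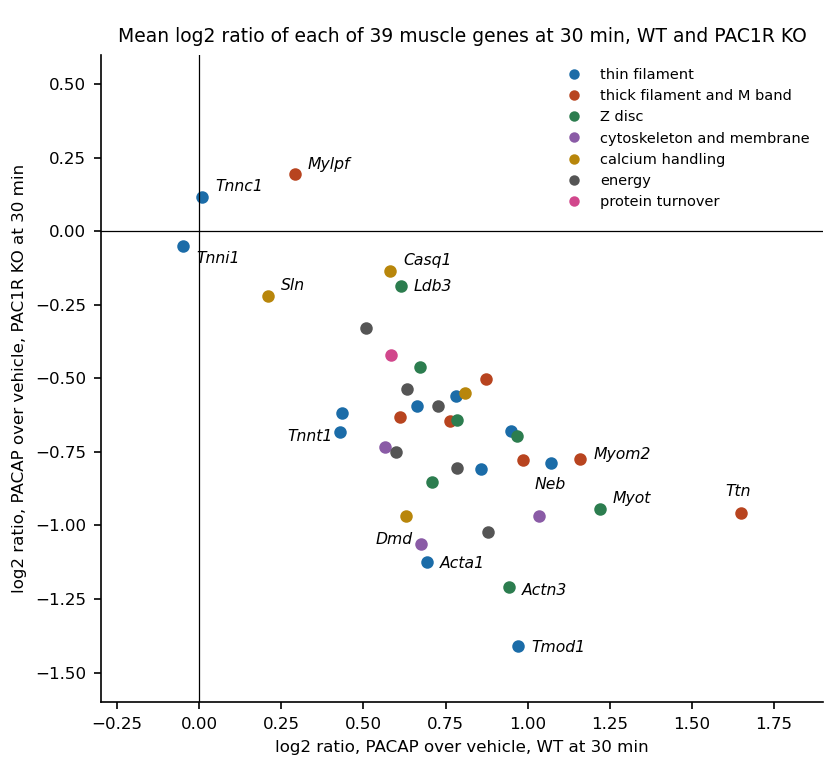
Mean log2 ratio of PACAP over vehicle at 30 min in PAC1R KO (vertical axis) against WT (horizontal axis) for the 39 genes, coloured by role. Most points lie to the lower right, with Ttn at 1.65 and -0.96 and Tmod1 at 0.97 and -1.41, and Tnni1, Tnnc1 and Mylpf lie near 0 or above it.

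Other skeletal muscle fibre genes moved with the 39. A list of 50 further genes of the fibre stood at a median of 0.62 in WT mice and -0.43 in KO mice on the log2 ratio scale at 30 min, and of -0.09 and 0.05 at 60 min. Both arrays were above 0 for 47 of the 50 in WT and below 0 for 41 in KO at 30 min. Of all 29608 gene names 6473 and 8158 did so, and of the 16146 above background in every channel 5774 and 7295. Of the 50, 7 were called up-regulated in WT and 3 down-regulated in KO, beside the 0.267% and 0.098% of all gene names given above. The highest in WT were Myh3 and Myh4, the myosin heavy chains of embryonic and fast fibres, at 2.70 and 1.46. Myh3 was above background in 14 of 16 channels, and its arrays in WT at 30 min lay apart, at 3.61 and 1.80. Myh4 was also the lowest in KO, at -1.31. Fbp2, muscle fructose bisphosphatase, had the opposite signs, at -0.58 in WT mice and 0.54 in KO mice, and so did Smyd1, a muscle methyltransferase, at -0.15 and 0.35.

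Regulators of muscle cell identity moved less. A list of 10 had medians of 0.20 in WT mice and -0.10 in KO mice at 30 min, and of -0.05 and -0.03 at 60 min, and 4 of the 10 were above background in every channel. Myf5, a transcription factor of early muscle cells, was not above background in any of the 16 channels. Heart muscle genes, 8 in number with 4 above background in every channel, had medians of 0.07 and 0.02 at 30 min, and of -0.08 and 0.00 at 60 min. They did not move together, since Myh6, a heart myosin heavy chain above background in all 16 channels, lay at 0.85 in WT mice and -0.79 in KO mice at 30 min, Myl4, an atrial light chain also above background throughout, at 0.62 and -0.06, and Myl7, another, at -0.25 and 0.51 with its arrays on opposite sides of 0 in WT. Smooth muscle genes, 10 in number, had medians of 0.08 in WT mice and -0.27 in KO mice at 30 min, where all 10 lay below 0 in KO, and of 0.10 and -0.03 at 60 min.

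Genes of other skin cells moved as well at 30 min. For 8 dermal fibroblast genes the median log2 ratio was 0.43 in WT, with both arrays above 0 for all 8, and -0.41 in KO. Col1a1, a chain of collagen I, was the highest in WT at 0.80, and Col1a2, the other chain, the lowest in KO at -0.86. For 10 keratinocyte genes the median was 0.10 in WT mice and -0.62 in KO mice. In KO both arrays were below 0 for 8 of the 10, while Dsg3 lay above 0 on both, at a mean of 0.51. There 2 were called down-regulated, beside 0.098% of all gene names. They were Krt10 at -1.45 and Krt1 at -1.14, the keratins of differentiating epidermis. No keratinocyte gene was called in WT at 30 min, and no fibroblast gene in either genotype. At 60 min the medians were 0.02 and 0.15 for fibroblast genes and 0.18 and 0.29 for keratinocyte genes. Relative to each gene's own mean, the fibroblast genes lay at -0.04 with vehicle and 0.40 with PACAP in WT and at 0.23 and -0.24 in KO at 30 min, and the keratinocyte genes at 0.05 and 0.17 and at 0.34 and -0.28. The part of these cell types in the change of the muscle genes was not tested.

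Adipocyte and housekeeping genes did not shift in this way. For 8 adipocyte genes the medians were -0.06 in WT mice and -0.00 in KO mice at 30 min and -0.14 and -0.02 at 60 min. For 10 housekeeping genes they were 0.01 and -0.01 at 30 min and -0.05 and -0.02 at 60 min.

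**Figure D5:**
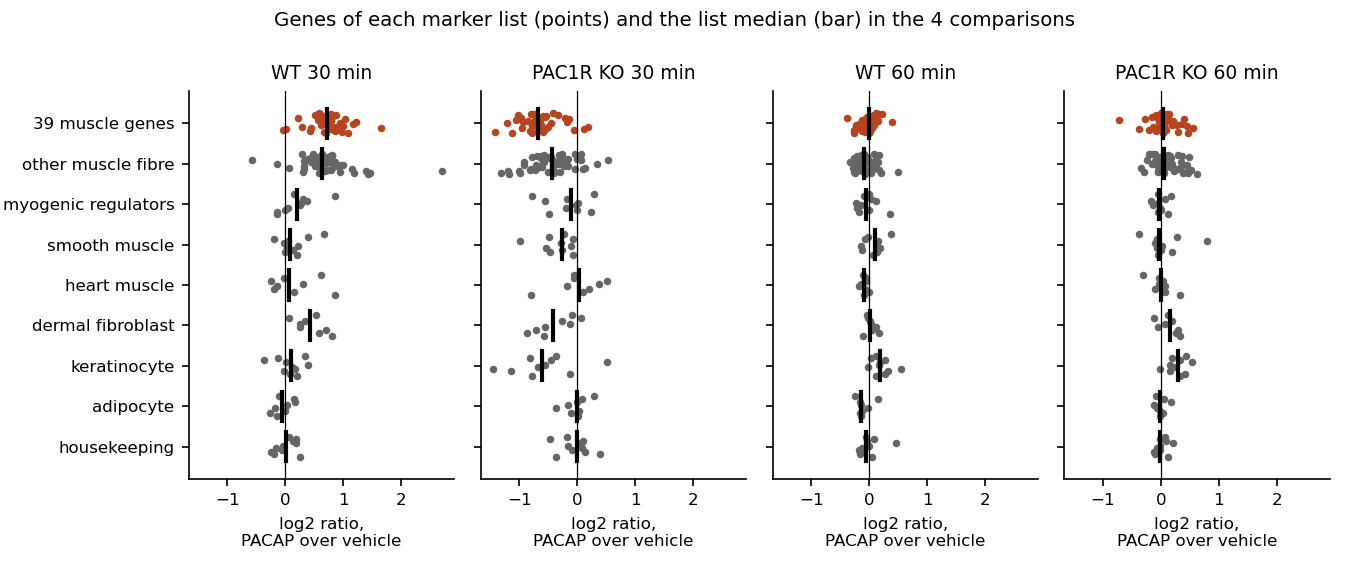
Log2 ratio of PACAP over vehicle (horizontal axis) of each gene (points) in the 39 muscle genes and 8 other lists (rows) in the 4 comparisons (panels), with a bar at the list median. The muscle fibre lists shift to medians of 0.71 and 0.62 in WT and of -0.68 and -0.43 in KO at 30 min. At that time fibroblast genes shift less, most keratinocyte genes shift in KO, and housekeeping genes stay near 0.

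Promoter sequences were matched for 29 of the 39 genes. Actn3, Tnni2, Ampd1, Myoz1, Myom2, Sln, Tnnt3, Myot, Tcap and Neb had no entry in the set of promoter sequences used, though all 39 gene names were found in RefSeq. Windows of 300 bases around the gene start, from RefSeq on GRCm38.p6, were searched on both strands for TATAAA, for the E-box CANNTG, bound by MyoD-type factors, for GGGCGG, and for the MEF2 motif and the CArG box, which serum response factor binds. The windows of Acta1, Ttn, Tnnc2 and Tnnc1 are shown because Ttn had the highest ratio in WT at 30 min, Acta1 was called down-regulated in KO at 30 min, and fast and slow troponin C differed, with capitals at matches to TATAAA, the E-box, the MEF2 motif and the CArG box. They lie at chr8:123894726-123895025 (minus strand), chr2:76982498-76982797 (minus strand), chr2:164779685-164779984 (minus strand) and chr14:31208062-31208361 (plus strand).
Acta1: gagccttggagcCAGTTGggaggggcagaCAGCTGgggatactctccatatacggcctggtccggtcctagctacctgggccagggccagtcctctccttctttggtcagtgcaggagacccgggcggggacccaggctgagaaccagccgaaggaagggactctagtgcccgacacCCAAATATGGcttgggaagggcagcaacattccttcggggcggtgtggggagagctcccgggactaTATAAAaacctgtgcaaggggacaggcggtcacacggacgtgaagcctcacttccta
Ttn: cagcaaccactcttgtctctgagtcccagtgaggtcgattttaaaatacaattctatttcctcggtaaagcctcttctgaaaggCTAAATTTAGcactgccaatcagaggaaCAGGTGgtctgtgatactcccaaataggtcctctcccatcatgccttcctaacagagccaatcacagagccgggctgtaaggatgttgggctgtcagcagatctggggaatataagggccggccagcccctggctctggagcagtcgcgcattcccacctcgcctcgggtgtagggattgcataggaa
Tnnc2: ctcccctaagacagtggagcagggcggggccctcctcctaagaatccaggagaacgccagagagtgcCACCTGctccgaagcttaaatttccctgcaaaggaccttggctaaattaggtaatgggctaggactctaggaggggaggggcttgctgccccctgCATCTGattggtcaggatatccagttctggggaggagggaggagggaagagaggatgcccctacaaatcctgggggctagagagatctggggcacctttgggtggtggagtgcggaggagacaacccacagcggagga
Tnnc1: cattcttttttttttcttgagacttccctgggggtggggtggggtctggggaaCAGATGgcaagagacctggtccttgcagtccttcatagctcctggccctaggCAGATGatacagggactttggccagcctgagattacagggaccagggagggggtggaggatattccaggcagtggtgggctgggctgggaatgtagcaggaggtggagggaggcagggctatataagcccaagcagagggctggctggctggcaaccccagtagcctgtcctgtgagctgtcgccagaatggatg

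In the Acta1 window a CArG box, CCAAATATGG, begins 73 bases and a TATAAA 7 bases before the gene start. The Ttn window holds a MEF2 motif and 1 E-box, and those of Tnnc2 and Tnnc1 hold 2 E-boxes each and none of the other 3 marked motifs. Several genes had more than 1 start, which gave 38 windows for the 29 genes. A CArG box was found in 5 of the 38 (13.2%), for Acta1, Dmd, Ldb3 and Myom1, and in 1.63% of 32851 windows of the same length. The MEF2 motif was found in 2 of the 38 (5.26%), for Ttn and Xirp2, and in 0.557% of all windows. An E-box was found in 84.2% of the windows and in 72.3% of all windows, TATAAA in 13.2% and 13.6%, and GGGCGG in 28.9% and 35.7%. None of the marked matches in the printed windows overlap, and a match is a description of the letters.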

How the data were processed

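RNA of palm skin was hybridised to 8 Agilent 2-colour arrays, 2 per comparison with dyes swapped. The authors deposited Feature Extraction output (header version 12.0.3.1, submitters' notes 11.0.1.1, probe coordinates of mm9) with log10 ratios of dye-normalized red over green, a p-value per spot and intensity values before and after background subtraction. The deposited value table equals the processed red over green. Here log10 ratios were multiplied to log2, signed by dye, and averaged over each swap. Levels came from the deposited mean and background intensity values after normexp (offset 50), loess and Aquantile in limma 3.58.1 (R 4.3.3). Control spots and outliers were left out, and 0 spots were saturated. The single pair of RNA samples per comparison limits the precision. Tests used limma with Benjamini-Hochberg adjustment over all probes, with 1 value a comparison, and scripts were tested on simulated data. The members and lists were chosen with earlier results of these data known. Values in every sample were given for the gene of largest mean change and the gene of brightest probe per role, for the troponin pairs, and for the 3 smallest p in the genotype fit. Acta1 was added after its values were seen. The alternatives were another background correction, centring, probe filters, fold and p rules, the mean over probes, covariates, a replicate block and leaving out arrays or comparisons. Exon and untranslated region positions of probes were not annotated here.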

Additional observations from a re-analysis of the deposited data

Results flagged for a closer look

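Some genes had both arrays of a dye swap on 1 side of 0 in a comparison and both on the opposite side in another. Between genotypes at 30 min this was so for 35 of the 39 genes, above 0 in WT and below 0 in KO, beside 28.2% of all gene names above background in every channel. At 60 min it was so for 3 genes above 0 in WT and below 0 in KO, and for 5 genes the reverse, beside 6.56% and 9.4% of those gene names, so that these counts lie near the background. Between time points, 9 genes were above 0 at 30 min and below 0 at 60 min in WT, 2 genes were so in KO, and 15 genes were below 0 at 30 min and above 0 at 60 min in KO, beside 9.14%, 16.5% and 20.6%. With 1 pair of RNA samples per comparison, these differences were not tested gene by gene.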

How the results depend on the processing

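Of 204 alternatives, 13 changed a result by over 1.5 times for a count or by more than the spread between arrays for a value, 191 stayed within that, and 0 turned a called value. Values near 0 at 60 min did change sign, as did the fast minus slow difference in KO, from 0.02 to -0.10 without replicate 2 and to -0.01 with normexp and loess. Against 5 genes called up in WT at 30 min, the mean over all probes gave 3 and single arrays gave 7 to 8. Against 5 called down in KO at 30 min, normexp and loess gave 1, requiring both channels above background gave 3, and single arrays gave 6. Calls without a fold threshold, an alternative chosen after seeing the data, were 27 and 22. In the genotype test, leaving out 1 comparison gave 0 to 170 probes, with 170 without WT at 30 min and 83 without WT at 60 min, and 0 to 1 of the 39 genes. With time point as covariate the test gave 17 probes. The mean of the 4 comparisons gave 0 to 1 probes, the 1 without WT at 30 min. The time test gave 0 to 14 probes, the 14 without KO at 60 min, and 2 with genotype as covariate. The cause was not tested. A replicate block over single arrays, where the number is the dye orientation and pairs no animals, gave 0 probes and 0 of the 39 genes in all 3 tests. It takes the 8 arrays of 4 RNA pairs as units, with the pair as a random block (correlation 0.72 to 0.77), so it adds no replicates. Of 156 ratios of the 39 genes, normexp and loess changed the sign of 11, leaving out replicate 1 that of 15 and leaving out replicate 2 that of 22. Dim probes such as those of Dmd and Tmod1 limit their values.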
